A study of Mus musculus with 12 samples.

Results

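Troponin and striated muscle actin genes were followed in 3T3-L1 cells, mouse fibroblasts that can be induced with hormones to become adipocytes. The 8 genes were Tnnt1, Tnnt2, Tnnt3, Tnni1, Tnnc1, Acta1, Actc1 and Myl4, each matched by its symbol to a row of a table of 55487 genes. They were selected on results of these data, because Tnnt2 was far lower after induction in Fto knockdown cells. The values that chose them are therefore given below as a description, with no test. Of the 8 genes, 7 were above 0 in at least 1 library and 5 passed the filter on low values.

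The study examined how rhein, a plant anthraquinone that inhibits the m6A demethylase FTO, acts on adipogenesis, and the Fto knockdown cells served as a comparison. The rhein-treated cells were not analysed here. All cells carried a lentiviral short hairpin and were selected with puromycin. The control line had a scrambled hairpin (shScram) and the knockdown line a hairpin against Fto (shFto). Each line was sequenced as untreated preadipocytes (Pre), at the stage of mitotic clonal expansion (MCE) after the MDI cocktail of IBMX, dexamethasone and insulin, and at the differentiation stage (Diff), with 2 libraries in each of 6 groups. Which Fto hairpin the sequenced line carried, and whether the libraries came from separate cultures, are not stated in the sources used here, so p-values measure only the spread between these libraries.

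The values are TPM (each gene's share of all transcripts after correction for length), so levels of different genes can be compared but the sequencing depth is unknown. Fto itself was at 52.7 to 73.5 TPM in the 6 shScram libraries and at 5.51 to 7.47 TPM in the 6 shFto libraries. Between 20853 and 24018 genes were above 0 per library. The labels of replicate 1 of shScram at Diff disagree, since its treatment entry names the knockdown. It was assigned by its title, and its Fto value lay in the shScram range above. Some results at Diff for the members and the lists are also given without it. Replicates correlated across genes at 0.939 in shScram preadipocytes and at 0.990 to 0.993 in the other groups. Markers of fibroblasts and preadipocytes summed to 9247 to 14444 TPM per library, with all 10 listed genes past the filter. Markers of adipocytes summed to 1685 and 1706 TPM in shScram cells at Diff and to 476 and 513 TPM in shFto cells at Diff, and their part in the differences below was not tested.

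In striated muscle, troponin sits on the thin filament of actin and tropomyosin and makes contraction depend on calcium. Troponin C binds calcium, troponin I inhibits the actin and myosin interaction, and troponin T anchors the complex to tropomyosin. Each subunit has paralogs named for fast skeletal, slow skeletal or cardiac muscle, but low levels of some of them are known in other cells. Tnnt2 encodes cardiac troponin T, Tnnt3 the fast skeletal and Tnnt1 the slow skeletal form. Tnni1 encodes slow skeletal troponin I, and Tnnc1 the troponin C shared by slow skeletal and cardiac muscle. Acta1 and Actc1 encode the skeletal and cardiac alpha-actins, and Myl4 an atrial and embryonic myosin light chain.

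The genes lie at dispersed positions on GRCm38, apart from neighbouring pairs of troponin T and troponin I genes. Tnnt2 (ENSMUSG00000026414, chromosome 1 from 135836354 to 135852260, plus strand) starts 25364 bases after the end of Tnni1 (ENSMUSG00000026418, 135779434 to 135810989, plus strand). Tnnt3 (ENSMUSG00000061723, chromosome 7 from 142498836 to 142516009, plus strand) lies 54425 bases from Tnni2, which encodes fast skeletal troponin I. Tnnt1 (ENSMUSG00000064179, chromosome 7 from 4504570 to 4516382, minus strand) lies 1922 bases from Tnni3, which encodes cardiac troponin I. Tnnc1 (ENSMUSG00000091898, chromosome 14 from 31208312 to 31211729, plus strand) and Myl4 (ENSMUSG00000061086, chromosome 11 from 104550663 to 104595753, plus strand) have no listed troponin neighbour. Acta1 (ENSMUSG00000031972) spans 123891769 to 123894751 on the minus strand of chromosome 8, and Actc1 (ENSMUSG00000068614) spans 114047282 to 114053548 on the minus strand of chromosome 2. All 8 are annotated as protein-coding genes.

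RefSeq (GRCm38.p6) promoter windows were found for 7 of the 8 genes, with Tnnt3 missing. Motifs known from muscle promoters were searched on both strands in the 250 bases before each start. The 3 windows below are shown because they hold the M-CAT motif (CATTCC, bound by TEAD factors), which is present in 12.6% of 32851 promoter windows. Capitals mark the M-CAT motif, the CArG box bound by SRF, and E-boxes (CANNTG, bound by basic helix-loop-helix factors). They are printed 5′ to 3′ on the strand of the gene.
Tnnt2, chr1:135836084-135836333, plus strand: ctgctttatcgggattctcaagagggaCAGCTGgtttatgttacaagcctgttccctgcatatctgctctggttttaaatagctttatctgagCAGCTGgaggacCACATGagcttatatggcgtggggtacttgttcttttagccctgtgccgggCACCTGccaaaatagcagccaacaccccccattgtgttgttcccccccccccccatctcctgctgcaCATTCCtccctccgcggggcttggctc
Tnnc1, chr14:31208062-31208311, plus strand: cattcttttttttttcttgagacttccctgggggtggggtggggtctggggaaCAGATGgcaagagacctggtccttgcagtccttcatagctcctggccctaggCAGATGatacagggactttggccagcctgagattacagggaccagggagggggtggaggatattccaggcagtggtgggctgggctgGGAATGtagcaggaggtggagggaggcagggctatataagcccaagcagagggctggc
Acta1, chr8:123894776-123895025, minus strand: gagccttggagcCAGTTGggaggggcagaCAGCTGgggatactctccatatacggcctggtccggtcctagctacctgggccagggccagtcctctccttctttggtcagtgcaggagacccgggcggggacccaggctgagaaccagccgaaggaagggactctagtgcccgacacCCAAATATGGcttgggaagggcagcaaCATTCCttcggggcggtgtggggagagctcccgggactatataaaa

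The printed Tnnt2 window has the M-CAT motif 27 bases before the start, with 4 E-boxes further upstream. A second Tnnt2 window, chr1:135836739-135836988, has 1 E-box and no M-CAT motif. In the Tnnc1 window the motif stands on the opposite strand, 58 bases before the start, and there are 2 E-boxes. The Acta1 window joins an M-CAT motif at 46 bases, a CArG box at 73 bases and 2 E-boxes. A CArG box was found in 1.47% of all windows, and the window of Actc1 holds 1 as well, at 47 bases. E-boxes are common, being present in 66.2% of all windows. Tnni1 has them in both of its windows and Tnnt1 has 1, whereas the Myl4 window has no match to these motifs. These matches are of letters only and describe no binding.

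Tnnt2 was the troponin gene with the highest level in preadipocytes and was much lower after induction in both lines. In shScram cells it was at 24.3 and 22.7 TPM at Pre, 2.52 and 2.22 TPM at MCE and 8.23 and 5.80 TPM at Diff. The shFto libraries were at 139.2 and 139.3 TPM at Pre, 1.58 and 1.90 TPM at MCE and 3.67 and 3.93 TPM at Diff. The shFto preadipocytes were thus above every other library, while both lines were at a few TPM at the MCE stage.

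In the control line, which did not enter the choice of genes, the mean of Tnnt2 was 9.92-fold lower at the MCE stage than in preadipocytes. The difference was -2.86 on the log2(TPM + 1) scale (standard error 0.17, adjusted p = 5.32e-06 by limma over 15968 genes). From the MCE stage to Diff Tnnt2 rose again in shScram cells, 2.96-fold in the means (log2 difference 1.23, standard error 0.17, adjusted p = 0.00127 by limma), or 1.01 without replicate 1 of shScram at Diff (adjusted p = 0.0112). At Diff it was 1.85-fold lower in shFto than in shScram cells (log2 difference -0.72, standard error 0.17, adjusted p = 0.0149 by limma). This last call rests on few libraries: without replicate 1 of shScram at Diff the log2 difference was -0.50 (adjusted p = 0.110), and without either shFto library at Diff the adjusted p was 0.0918 and 0.0696.

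The comparison that chose the genes, shFto MCE against Pre, is given as values only. The difference in Tnnt2 was -5.68 on the log2(TPM + 1) scale, an 80.1-fold lower mean. Of the 15968 genes, only Rps18-ps6, a ribosomal protein pseudogene, was lower, at -5.74, and Ifit3 followed at -5.39. Between the lines, Tnnt2 was 5.92-fold higher in shFto than in shScram preadipocytes, with no overlap between libraries. At the MCE stage it was lower in both shFto libraries than in either shScram library, by 0.30 on the log2 scale.

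**Figure D1:**
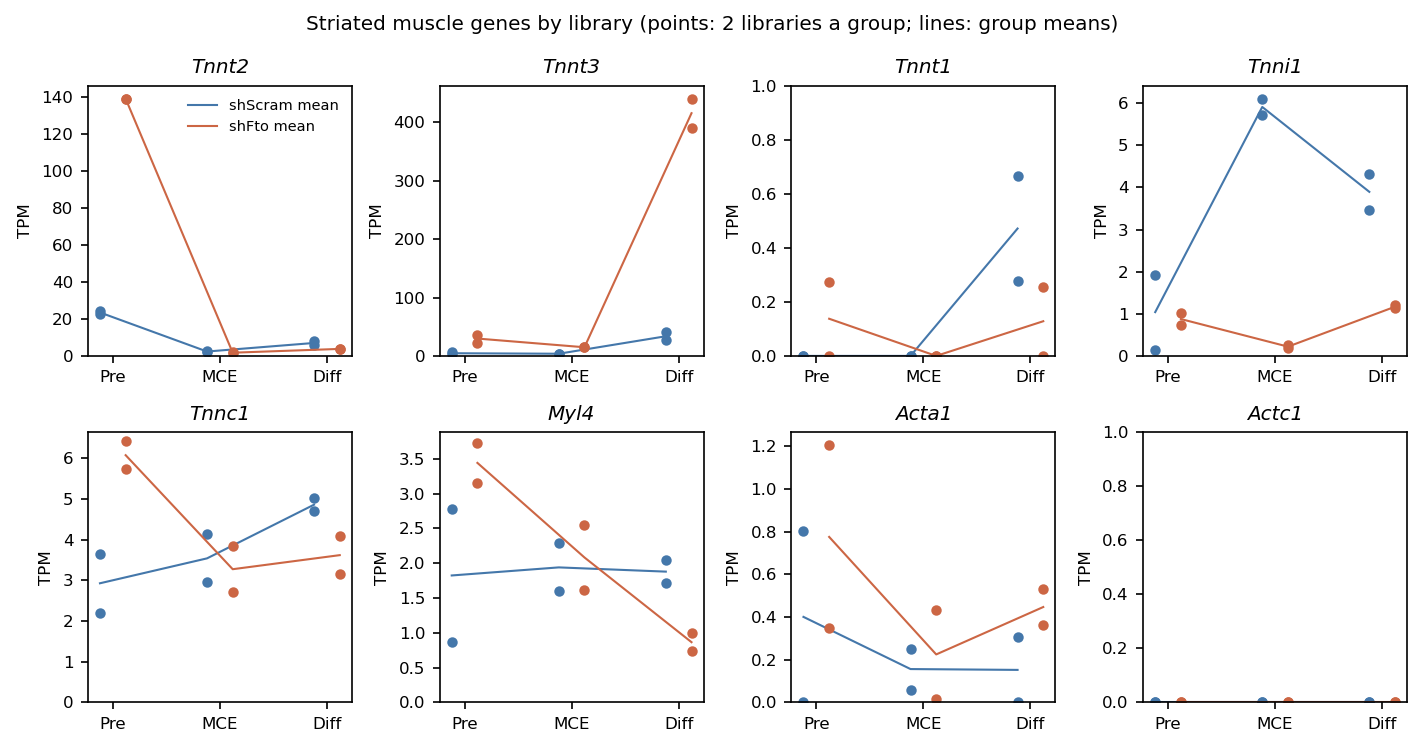
TPM of the 8 genes in each library (vertical axis, linear, with a range of its own per panel) at the 3 stages (horizontal axis) in shScram (blue) and shFto (orange) cells. Points are libraries and lines join group means. Tnnt2 stands at 139.2 and 139.3 TPM in shFto preadipocytes, Tnnt3 at 440.6 and 391.2 TPM in shFto cells at Diff, and Actc1 is at 0 throughout.

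Tnnt3 was highest at Diff in both lines. The shScram libraries held 6.61 and 2.57 TPM at Pre, 3.76 and 3.72 TPM at MCE and 27.0 and 40.4 TPM at Diff. The shFto libraries held 36.6 and 22.9 TPM at Pre, 14.9 and 14.8 TPM at MCE and 440.6 and 391.2 TPM at Diff. At every stage both shFto libraries were above both shScram libraries.

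In shScram cells Tnnt3 rose 9.01-fold from the MCE stage to Diff (log2 difference 2.84, standard error 0.35, adjusted p = 0.000819 by limma), the 26th highest difference of 15968 genes. Its difference between Pre and MCE was -0.14 (adjusted p = 0.776), with the MCE values inside the range of the preadipocyte libraries. At Diff the mean was 12.3-fold higher in shFto than in shScram cells (log2 difference 3.61, standard error 0.35, adjusted p = 0.000157 by limma). Without replicate 1 of shScram at Diff this difference was 3.33 (adjusted p = 0.00275), and the rise from MCE to Diff was 3.13 (adjusted p = 0.00510). In the untested comparisons, Tnnt3 was 6.48-fold higher in shFto preadipocytes and 3.97-fold higher in shFto cells at the MCE stage. Its mean in shFto cells was 28.0-fold higher at Diff than at MCE, the highest log2 difference of the 15968 genes, at 4.72, ahead of Mir5125 at 4.32.

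Tnnt1 did not pass the filter. It was at 0.277 and 0.667 TPM in shScram cells at Diff, at 0.275 TPM in 1 shFto preadipocyte library, at 0.257 TPM in 1 shFto library at Diff, and at 0 in the other 8. The troponin T transcripts of these cells therefore came from Tnnt2 and Tnnt3, and the balance between them differed by stage. Tnnt2 made up 78.6% and 89.8% of the summed TPM of the 3 genes in shScram preadipocytes and 79.1% and 85.9% in shFto preadipocytes. At the MCE stage its share was 40.2% and 37.4% in shScram cells and 9.58% and 11.4% in shFto cells. At Diff it was 23.2% and 12.4% in shScram cells and 0.825% and 0.994% in shFto cells, the rest being almost all Tnnt3. The preadipocyte shares of the lines overlapped although the levels did not, whereas the later shares did not overlap.

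**Figure D2:**
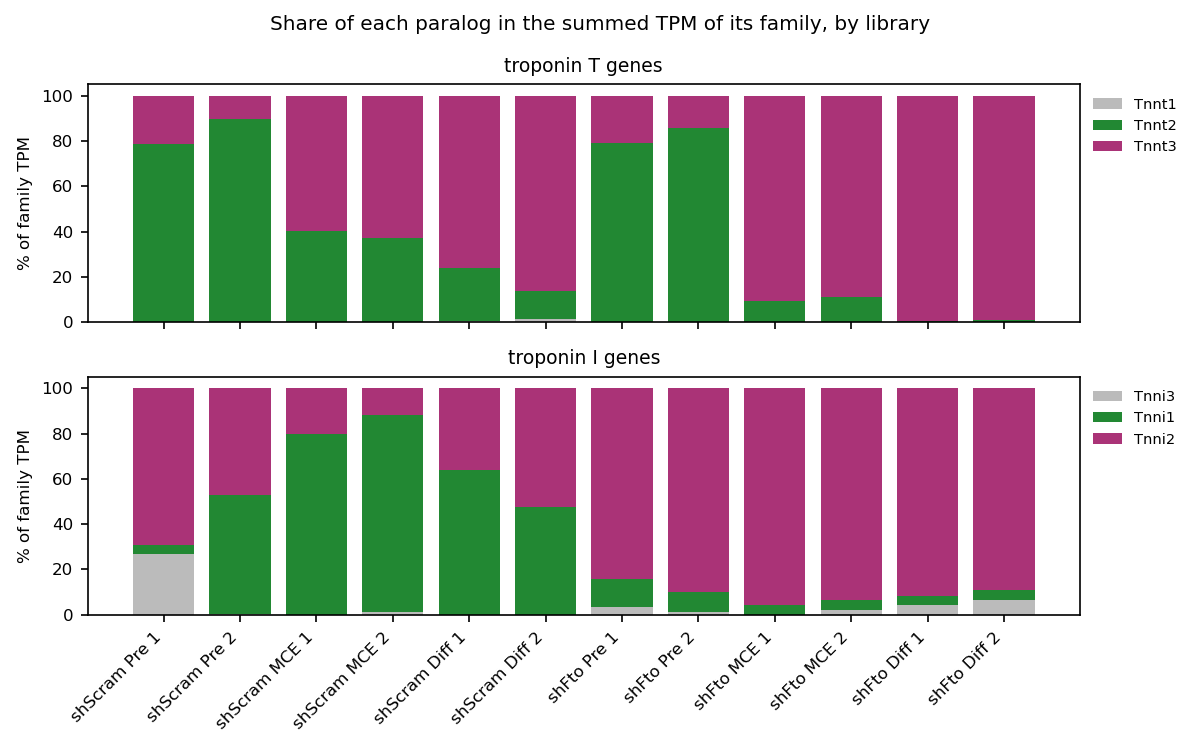
Share of each paralog (vertical axis, percent) in the summed TPM of the troponin T genes (upper panel) and troponin I genes (lower panel) in each of 12 libraries (horizontal axis). In the upper panel Tnnt2 gives way to Tnnt3 after the preadipocyte stage, reaching 0.825% and 0.994% in shFto cells at Diff, and in the lower panel Tnni1 leads in the shScram MCE libraries with 80.0% and 86.7%.

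Tnni1, the troponin I gene among the members, followed a different course in each line. In shScram cells it was at 0.152 and 1.93 TPM at Pre, 5.71 and 6.11 TPM at MCE and 4.32 and 3.47 TPM at Diff. In shFto cells it was at 1.02 and 0.731 TPM, then 0.188 and 0.252 TPM, then 1.13 and 1.21 TPM. The lines overlapped in preadipocytes and were apart at both later stages, with shScram above.

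The rise of Tnni1 from Pre to MCE in shScram cells was 5.68-fold (log2 difference 1.91, standard error 0.36, adjusted p = 0.00356 by limma). The 2 preadipocyte libraries differ widely for this gene. Without replicate 1 the log2 difference was 1.24 (adjusted p = 0.000884), without replicate 2 it was 2.58 (adjusted p = 2.80e-06), and with only the 4 libraries of the comparison the adjusted p was 0.123. The difference from MCE to Diff was -0.50 (adjusted p = 0.339). At Diff Tnni1 was 3.34-fold lower in shFto cells (log2 difference -1.17, standard error 0.36, adjusted p = 0.0467 by limma). That p lies close to the threshold, and 13 of 18 alternatives moved it above 0.05, to as much as 0.202 without replicate 1 of shScram at Diff. At the MCE stage, untested, Tnni1 was 26.9-fold lower in shFto cells.

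Among the 3 troponin I genes, Tnni1 held 80.0% and 86.7% of the summed TPM in shScram cells at the MCE stage and 63.7% and 47.7% at Diff. In shFto cells Tnni2 held 84.4% and 90.0% in preadipocytes, 95.6% and 93.3% at the MCE stage, and 91.8% and 89.2% at Diff. Tnni1 and Tnnt2, although 25364 bases apart on chromosome 1, changed in opposite directions from Pre to MCE in shScram cells.

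Tnnc1 stayed within a narrow range of a few TPM. The shScram libraries held 2.21 and 3.65 TPM at Pre, 2.95 and 4.13 TPM at MCE and 4.70 and 5.01 TPM at Diff. The shFto libraries held 6.42 and 5.73 TPM, 3.83 and 2.71 TPM, and 4.08 and 3.15 TPM at the same stages. None of its tested differences passed the threshold: 0.22 from Pre to MCE (adjusted p = 0.478 by limma), 0.38 from MCE to Diff (0.270) and -0.35 between the lines at Diff (0.338). In preadipocytes, untested, it was 2.08-fold higher in shFto cells, with no overlap. Tnnc1 overlaps Nisch on the opposite strand without sharing exon bases, and the use of strand in counting is not stated.

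Myl4 was low in every library. It was at 0.870 and 2.78 TPM in shScram cells at Pre, 2.28 and 1.60 TPM at MCE and 2.05 and 1.71 TPM at Diff. In shFto cells it was at 3.73 and 3.15 TPM, 2.55 and 1.61 TPM, and 0.997 and 0.733 TPM. At Diff the shFto libraries were below the shScram libraries, with a log2 difference of -0.63 that did not pass the threshold (adjusted p = 0.201 by limma). In shScram cells the differences were 0.14 from Pre to MCE (adjusted p = 0.757) and -0.02 from MCE to Diff (0.971). The 4 genes that overlap Myl4 on the opposite strand share at most 3 of its 4637 exon bases.

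The striated muscle actins were nearly absent. Acta1 was at 0 and 0.801 TPM in shScram cells at Pre, 0.0599 and 0.252 TPM at MCE and 0 and 0.305 TPM at Diff. In shFto cells it was at 1.20 and 0.346 TPM, 0.433 and 0.0165 TPM, and 0.361 and 0.533 TPM. Actc1 was listed at 0 in all 12 libraries, and with an unknown depth no upper limit can be set. Of the 1534 windows of 50 bases along Acta1 transcripts, 31 (2.02%) also occur in transcripts of other genes, led by a predicted gene and Actb, so its low values are uncertain. For Tnnt3 and Actc1 no such window was shared. By contrast, the cytoplasmic actins Actb and Actg1 had means of 1808 and 1942 TPM in shScram preadipocytes and of 1083 and 1127 TPM at the MCE stage. Both were lower at the MCE stage (adjusted p = 0.0162 and 0.00605 by limma) and neither was called in the other tested comparisons.

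Of the 5 members tested between the lines at Diff, 1 was higher (Tnnt3) and 2 were lower (Tnnt2, Tnni1) in shFto cells. Over all genes tested, 11.9% were called higher and 9.31% lower in that comparison. From Pre to MCE in shScram cells 1 member rose (Tnni1) and 1 fell (Tnnt2), where 12.2% of all genes rose and 26.9% fell. From MCE to Diff 2 members rose (Tnnt2, Tnnt3) and the other 3 were not called, where 20.0% of all genes rose and 5.22% fell. The median log2 differences of the 5 members were -0.63, 0.14 and 0.38 in the 3 comparisons, beside 0.03, -0.17 and 0.23 over all genes. The last 2 all-gene medians moved to 0.00 and 0.01 with median-ratio scaling. That scaling turned the split of all calls from Pre to MCE from 1942 higher and 4294 lower to 3202 and 2831, and from MCE to Diff from 3190 and 833 to 1866 and 1765. In the comparison that chose the members, all 5 were lower without overlap in shFto cells at the MCE stage than before, as were 51.4% of all genes.

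**Figure D3:**
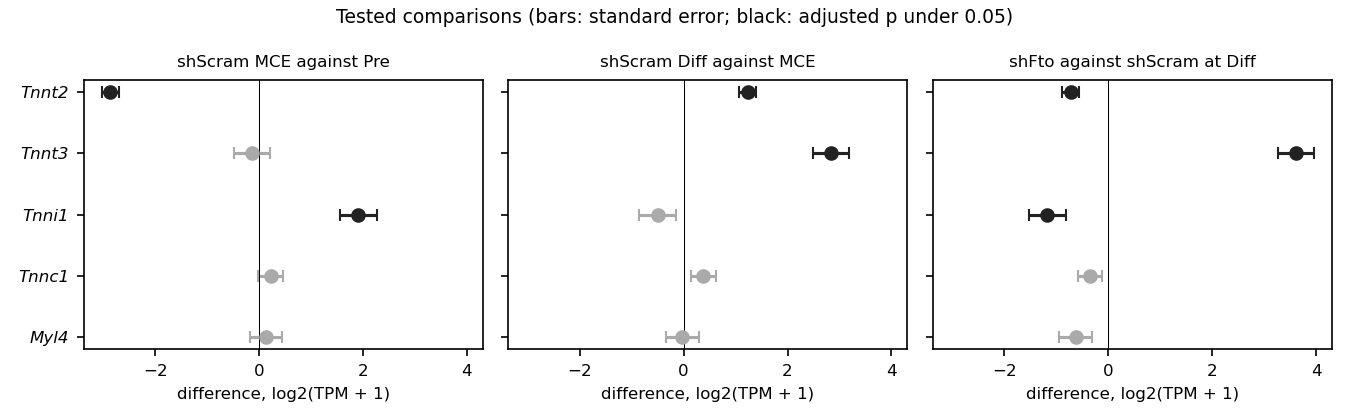
Differences of the 5 tested members on the log2(TPM + 1) scale (horizontal axis) in the 3 comparisons whose libraries did not choose them. Points are differences between group means, bars are standard errors, and black marks an adjusted p under 0.05. Tnnt3 lies at 3.61 between the lines at Diff and Tnnt2 at -2.86 from Pre to MCE in shScram cells.

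Values of the genes around Tnnt3 on chromosome 7 were read beside its own. The 10 other genes within 150 kb of Tnnt3 with a mean of at least 1 TPM were examined after their values had been seen, so no test was made except for Tnni2. Tnni2 was tested as a gene of the list of other sarcomere genes below, although its values had been seen too. Genes that reach this mean mainly through the shFto libraries at Diff, such as Igf2 and the overlapping Gm49394, had to be higher there, so no count is given.

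Tnni2, the fast skeletal partner of Tnnt3, was at 2.46 and 3.81 TPM in shScram cells at Diff and at 27.2 and 24.8 TPM in shFto cells (log2 difference 2.73, standard error 0.23, adjusted p = 7.74e-05 by limma). Without replicate 1 of shScram at Diff the difference was 2.49 (adjusted p = 0.00129). Like Tnnt3 it rose from MCE to Diff in shScram cells, by 0.94 (adjusted p = 0.0182). Lsp1, which encodes an actin-binding protein of leukocytes and other cells, lies between them. It was at 140.3 and 149.4 TPM in shFto cells against 18.3 and 19.0 TPM in shScram cells at Diff. It was already higher in shFto preadipocytes, at 78.5 and 74.8 TPM against 11.9 and 19.6 TPM. Prr33, which overlaps Tnnt3 on the opposite strand without sharing exon bases, was at 15.1 and 13.7 TPM in shFto cells against 0.808 and 1.27 TPM in shScram cells at Diff.

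On the other side of Tnnt3 lie H19, a maternally expressed noncoding RNA, and Igf2, a paternally expressed growth factor. H19 was at 43.3 and 40.9 TPM in shFto cells against 2.92 and 3.45 TPM in shScram cells at Diff. Igf2 was at 37.5 and 39.4 TPM in shFto cells against 1.36 and 0.0251 TPM in shScram cells. Other neighbours apart from Gm49394 differed less. Mrpl23, a mitochondrial ribosomal protein gene between Tnnt3 and H19, was at 81.5 and 79.0 TPM in shFto cells against 57.9 and 44.5 TPM in shScram cells at Diff. On the side of Tnni2, Ctsd, which encodes the protease cathepsin D, had means of 1286 TPM in shFto and 1009 TPM in shScram cells at Diff. The means of Ifitm10 were 4.19 and 2.55 TPM, and those of Syt8 were 4.25 and 1.92 TPM. Gm49394 was at 8.65 and 8.68 TPM in shFto cells against 0 and 0.758 TPM in shScram cells at Diff. At the MCE stage it was lower in shFto cells, with a mean of 0.0246 against 0.221 TPM.

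**Figure D4:**
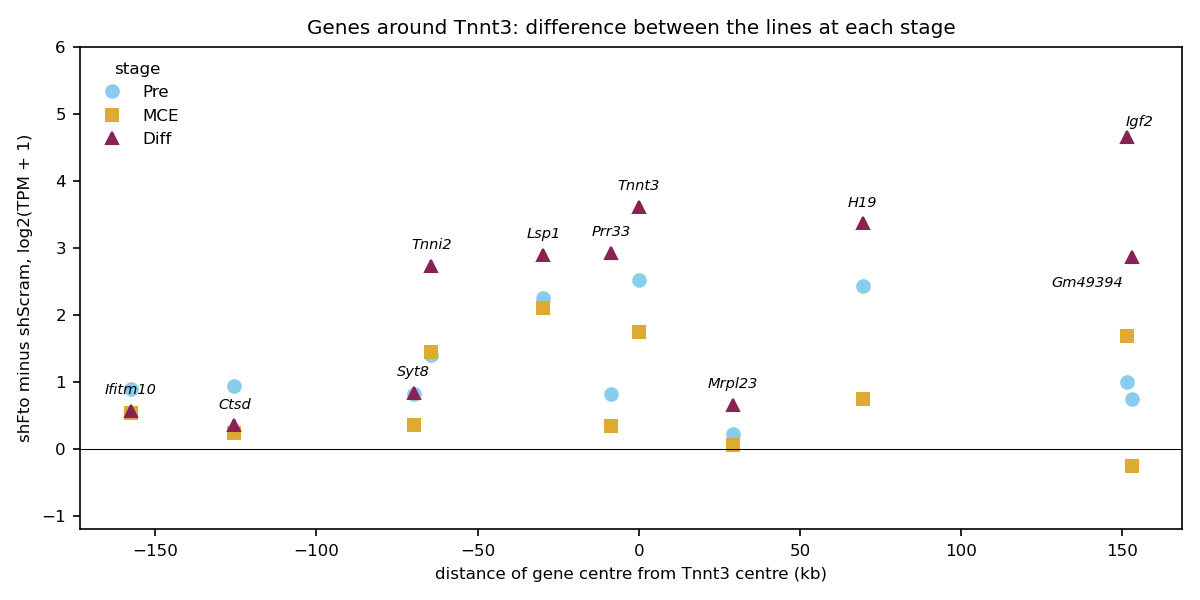
Difference between shFto and shScram means on the log2(TPM + 1) scale (vertical axis) for the genes around Tnnt3, by the distance of their centres from that of Tnnt3 in kb (horizontal axis), at Pre, MCE and Diff. Genes are included where the gap to Tnnt3 is within 150 kb. At Diff Tnnt3 is at 3.61, Lsp1 at 2.89, H19 at 3.37 and Igf2 at 4.66, while Syt8 is at 0.84, Mrpl23 at 0.65, Ifitm10 at 0.57 and Ctsd at 0.35. Igf2 reaches the required mean of 1 TPM mainly through the shFto libraries at Diff, so it had to be higher there.

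Markers of muscle were read beside these values. Of 11 skeletal muscle markers 3 passed the filter and 8 stayed under 1 TPM in all libraries. Myh2, Myh4 and Pvalb, defining genes of fast fibres, were at 0 everywhere, and Ckm and Myog did not exceed 0.0468 and 0.0948 TPM. The summed markers were at 5.70 to 7.94 TPM in shScram cells. In shFto cells they were at 17.1 to 19.6 TPM in preadipocytes, 10.6 to 11.1 TPM at the MCE stage and 31.4 to 36.6 TPM at Diff, Tnni2 making up most of the last. Of 8 cardiac markers 1 passed, their sum reached at most 1.99 TPM, and Myh7, Myl2 and Ryr2 were at 0 everywhere. In bulk RNA, fewer cells that express a gene and less RNA of it per cell cannot be told apart. Smooth muscle markers, 4 of 7 past the filter, summed to 324 to 491 TPM in shScram preadipocytes. Their sum was 1121 to 1205 TPM in shFto preadipocytes, the group where Tnnt2 was highest. Acta2 made up most of each of these sums. The smooth muscle markers Myh11, Cnn1 and Myocd stayed under 1 TPM in every library, and Myocd was listed at 0 in all preadipocyte libraries. Macrophage markers, 3 of 6 past the filter, summed to 6.59 to 20.0 TPM in shScram and 29.6 to 50.3 TPM in shFto cells. Cd14 was the highest of them in every library, while Adgre1 was at 0 everywhere. The part of these genes in the results above was not tested.

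Of 47 other sarcomere genes on a list, 13 passed the filter. Tnni3 passed only through the shFto libraries at Diff and 1 shScram preadipocyte library, so it is left out of the comparison between the lines at Diff. Of the other 12, 4 were higher in shFto cells and 8 were not called, beside 11.9% of all genes called higher. Their median was 0.34, beside 0.03 over all genes. With median-ratio scaling 4 of the 12 were higher and 1 was lower. Without replicate 1 of shScram at Diff 2 of the 12 were called, both higher. Ankrd1, a stress-responsive protein of the sarcomere, had a mean of 4.83 TPM in shFto cells against 1.12 TPM in the control line (log2 difference 1.46, adjusted p = 0.000392), and the difference was 1.34 without replicate 1 of shScram at Diff (adjusted p = 0.00587). Tnni3 was listed at 0 in both shScram libraries at Diff and at 1.31 and 1.78 TPM in the shFto libraries.

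In shScram cells 7 of the 13 fell from Pre to MCE, 1 rose and the median was -0.72, beside 26.9% fallen, 12.2% risen and a median of -0.17 over all genes. With median-ratio scaling 6 fell and 1 rose. Ankrd1 fell by 3.30, from a mean of 12.7 to 0.392 TPM (adjusted p = 2.19e-06 by limma). Tpm1, a tropomyosin that many cell types use, fell by 2.04, from 703.3 to 170.7 TPM (adjusted p = 3.21e-06). The gene that rose was Mylpf, a fast skeletal myosin light chain (1.22, adjusted p = 0.0175). Of the same 13, 8 rose and 1 fell from MCE to Diff, with a median of 0.49, beside 20.0% risen, 5.22% fallen and a median of 0.23 over all genes. With median-ratio scaling 5 rose and 2 fell, and without replicate 1 of shScram at Diff 5 rose and 1 fell. The largest of these were Tmod4 (1.29, adjusted p = 0.0188) and Actn3 (1.21, adjusted p = 0.00202), while Mylpf fell by 1.27 (adjusted p = 0.0216).

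**Figure D5:**
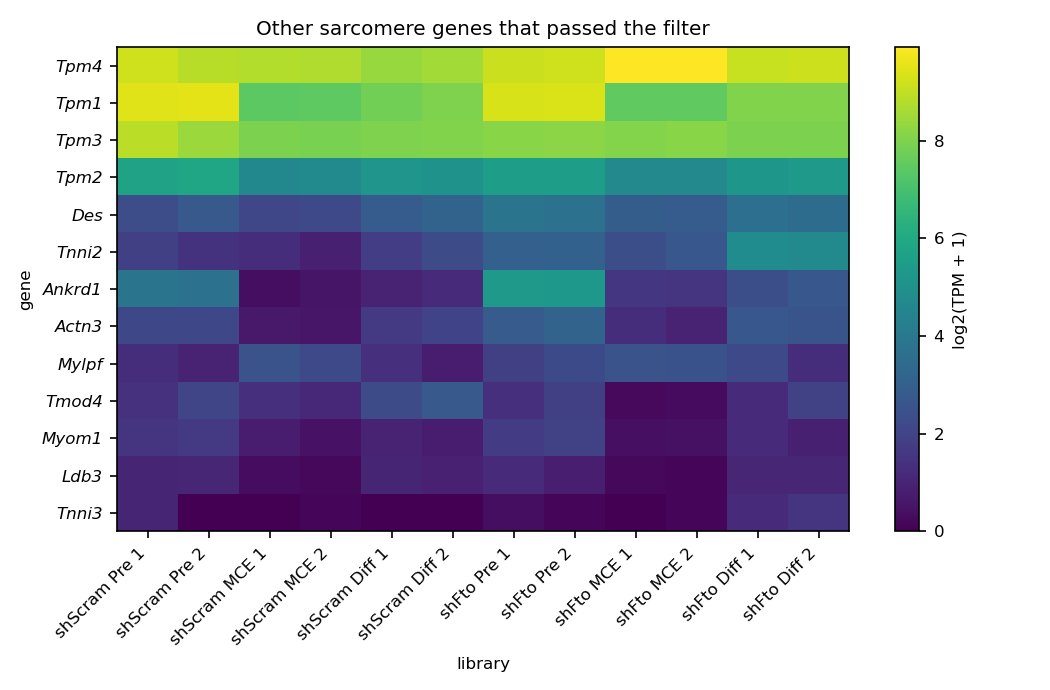
Levels of the 13 other sarcomere genes that passed the filter (vertical axis, ordered by mean) in each library (horizontal axis), with colour giving log2(TPM + 1). The 4 tropomyosin genes lead, Ankrd1 is highest in the preadipocyte libraries, and Tnni2 is highest in shFto cells at Diff with 27.2 and 24.8 TPM.

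Of 10 smooth muscle contractile genes 8 passed the filter. From Pre to MCE in shScram cells 6 of these fell and the other 2 were not called, beside 26.9% fallen over all genes. Acta2, the smooth muscle alpha-actin, fell by 5.40, from a mean of 379.6 to 7.92 TPM (adjusted p = 5.82e-07), and Myl9 by 4.82 (adjusted p = 1.85e-05). Later, from MCE to Diff, 4 rose and the other 4 were not called, beside 20.0% risen over all genes. Between the lines at Diff 4 were higher in shFto cells and 2 lower, Tagln (2.07, adjusted p = 0.00211) and Acta2 (1.60, adjusted p = 0.000831) being among the higher ones. The 2 lower genes were Lmod1 (-1.23, adjusted p = 0.0142 by limma) and Mylk (-0.94, adjusted p = 0.00154). Over all genes 11.9% were higher and 9.31% lower. Without replicate 1 of shScram at Diff 3 were higher and 1 lower, with Tagln at 1.96 (adjusted p = 0.0223) and Acta2 at 1.42 (0.0107).

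Regulators known to act on such genes were read next, beside the shares called over all genes. Of all genes 11.9% were higher and 9.31% lower in shFto cells at Diff. In shScram cells 12.2% rose and 26.9% fell from Pre to MCE, and 20.0% rose and 5.22% fell from MCE to Diff. A list of SRF, its cofactors and TEAD factors had 7 genes past the filter. At Diff 3 of these were higher in shFto cells, Fhl2 (2.21, adjusted p = 2.83e-05 by limma), Fhl1 and Tead1, and the other 4 were not called. Among those 4 were Srf itself (0.07, adjusted p = 0.931), Mrtfa (0.13, 0.863) and Mrtfb (-0.43, 0.0865). From Pre to MCE in shScram cells 3 of the 7 fell and 1 rose, with Fhl2 at -3.14 (adjusted p = 2.17e-06). With median-ratio scaling 2 of the 7 were higher and 1 lower at Diff, and 2 fell and 1 rose from Pre to MCE. Of the TEAD factors, which bind M-CAT motifs, Tead1 was higher in shFto cells at Diff by 0.49 (adjusted p = 0.0240), a call lost without replicate 1 of shScram at Diff (0.121), while the difference of Tead4 was -0.67 (0.0706). From Pre to MCE in shScram cells Tead1 fell by 0.56 (adjusted p = 0.00822) and Tead4 rose by 1.23 (0.00335). Between MCE and Diff in shScram cells 1 of the 7 rose. Of 17 myogenic regulators 6 passed, of which 1 was lower in shFto cells at Diff, Mef2b (-1.22, adjusted p = 0.00292). Of the 6, 1 rose and 2 fell from Pre to MCE, and from MCE to Diff 2 rose. Of 10 cardiac regulators 3 passed, of which Gata6 was higher in shFto cells at Diff (0.99, adjusted p = 0.00441) and Isl1 rose from Pre to MCE (0.89, adjusted p = 0.00584). Of 15 genes for excitation and energy supply in striated muscle 4 passed. Cox6a2, a muscle form of a cytochrome c oxidase subunit, was higher in shFto cells at Diff (1.66, adjusted p = 0.0172 by limma). In shScram cells 2 of the 4 fell from Pre to MCE and 2 rose from MCE to Diff, or 1 and 1 with median-ratio scaling. Without replicate 1 of shScram at Diff, Fhl2, Mef2b, Gata6 and Cox6a2 kept their calls at Diff (adjusted p = 0.000376, 0.0198, 0.0253 and 0.0473 by limma).

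The genes whose log2(TPM + 1) pattern was most like that of Tnnt2 over the 12 libraries, among 10797 genes with a mean of at least 5 TPM, were Myo1d (r = 0.974), Wwc1 (0.969) and Itgb1bp1 (0.959). For Tnnt3 they were Arfgap3 (r = 0.960), Larp6 (0.949) and Ampd3 (0.943). These are descriptions over libraries that share stages and lines. Ampd3, an AMP deaminase, was at 183.2 and 181.0 TPM in shFto cells against 44.6 and 49.2 TPM in shScram cells at Diff, whereas the most like gene of Tnnt2, Myo1d, was at 34.3 and 34.2 TPM in shFto preadipocytes against 22.1 and 25.2 TPM in shScram preadipocytes.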

How the data were processed

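Fragmented total RNA of 12 libraries in 6 groups was sequenced. The authors used Trim Galore 0.6.5 to trim reads and HISAT2 2.1.0 to align to GRCm38. The deposited TPM values were computed by StringTie 2.1.4 for the genes of Ensembl release 102. The authors' own test, DESeq2 1.30.1, needs counts and was not used here. TPM keeps no depth, so precision rests on 2 libraries per group.

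Genes with at least 1 TPM in at least 2 libraries (15968 of 55487) were tested on log2(TPM + 1), which understates changes of low genes, with limma 3.58.1 in R 4.3.3. The fit had a mean per group, 6 residual degrees of freedom and a trend, and p-values were two-sided and Benjamini-Hochberg adjusted over all genes tested, with a threshold of 0.05. It was tested on simulated data. Python 3.11.15, numpy 2.4.6, pandas 2.3.3 and matplotlib 3.10.9 did the rest. Positions came from GENCODE M21, promoters from RefSeq.

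The members and lists were chosen with earlier results of these data known. Members and lists were tested only in comparisons without the shFto Pre and MCE libraries. Those libraries still entered the fit through the spread that all groups share. Named list genes were the called genes with the largest differences, at most 3 per list and comparison. Mylpf and Tead1 from Pre to MCE and the neighbours of Tnnt3 were named after their values were seen. So were Tead4, Srf, Mrtfa, Mrtfb, Lmod1 and Mylk at Diff. Alternatives covered the pseudocount, filters, scaling, libraries in the fit, trend, replicate block, the call rule of the study applied to the limma values, and each library left out. No library pair held identical values.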

Additional observations from a re-analysis of the deposited data

Results flagged for a closer look

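The effects below were picked because they pointed in opposite directions in every library of the groups compared. All 8 members were searched by this rule, and the share of all genes that meet it was not counted. For none of the pairs below was the difference between the effects tested, since each pair involves libraries that chose the genes. The differences of Tnnc1 and Myl4 at Diff were not called above, nor was the change of Tnni1 from MCE to Diff in shScram cells.

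The difference between the lines in Tnnt2, shFto minus shScram on the log2(TPM + 1) scale, was 2.52 in preadipocytes, -0.30 at the MCE stage and -0.72 at Diff, so it changed by -2.82 from Pre to MCE and by -3.24 from Pre to Diff. Tnni1 went up by 1.91 from Pre to MCE in shScram cells and was 0.62 lower in shFto cells, a gap of -2.53. From MCE to Diff it was 0.50 lower in shScram cells and 0.83 higher in shFto cells, a gap of 1.33. For Tnnc1 the difference between the lines was 0.87 in preadipocytes and -0.35 at Diff, a change of -1.22. For Myl4 it was 0.74 in preadipocytes and -0.63 at Diff, a change of -1.36.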

How the results depend on the processing

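The calls of Tnnt3 (between the lines at Diff, and MCE to Diff in shScram cells) and of Tnnt2 in both shScram comparisons held under all 19 alternatives each. With only the libraries of the comparison, the adjusted p of Tnnt2 from Pre to MCE in shScram cells was 0.0275 by limma. Tnnt2 between the lines at Diff passed the threshold in 16 of 19 (adjusted p from 0.00327 to 0.110), and it is not called by the study's rule, which needs a fold change under 0.5, Tnni1 from Pre to MCE in 17 of 18, and Tnni1 between the lines at Diff in 5 of 18. The number of members called between the lines at Diff ranged from 1 to 4 when a library was left out, from Pre to MCE from 2 to 4, and from MCE to Diff from 2 to 3. It was 1 without replicate 1 of shScram or either replicate of shFto at Diff. From Pre to MCE it was 4 without replicate 2 of shScram preadipocytes, and 1 with only the libraries of the comparison or with a mean of at least 5 TPM, where 2 members were tested. Without replicate 2 of shScram preadipocytes, Tnnt3 (adjusted p = 0.0381 by limma) and Myl4 (0.0477) were called as well. Without replicate 1 or 2 of that group, Myl4 was called between the lines at Diff (0.0313 and 0.0321) and Tnni1 from MCE to Diff (0.0317 and 0.0334). In these last fits the differences of Myl4 (-0.63) and Tnni1 (-0.50) were the same as in the main fit. Only the estimated spread and its degrees of freedom differed. The cause of the other shifts was not tested, apart from fewer members being tested.

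The sign turned only for members that were not called. Between Pre and MCE in shScram cells, Tnnt3 was at 0.035 with median-ratio scaling. With a library left out, it ranged from -0.68 to 0.41 in that comparison, Tnnc1 from -0.046 to 0.49 and Myl4 from -0.37 to 0.64, the ends being set by replicates 1 and 2 of shScram preadipocytes. Myl4 also turned to -0.034 without replicate 1 of shScram at MCE. Between MCE and Diff, Myl4 ranged from -0.19 to 0.15, the ends being set by the shScram MCE replicates, and was at 0.061 without replicate 2 of shScram at Diff.

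Over all genes, calls between the lines at Diff, from Pre to MCE and from MCE to Diff numbered 3391, 6236 and 4023. They were 1750, 3138 and 1938 with the study's cut-offs (p under 0.05 and a fold change over 2 or under 0.5) applied to the limma values. These are not the study's own counts, which came from DESeq2. With the fit limited to the 4 libraries compared, the calls numbered 6613, 504 and 6454. Between the lines at Diff they were 2260 with a mean of at least 5 TPM. With a library left out they ranged from 1639 to 7290, 3292 to 10338 and 1605 to 8309, the highest being without a shScram preadipocyte library.

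Replicate numbers are shared between groups, but their deviations did not go together (15 group pairs, r from -0.290 to 0.172, 2 over 0.1), so the number was not taken as a pairing. With the replicate block, 2 members were called in each of the 3 comparisons, Tnni1 at Diff being lost (adjusted p = 0.0594), and 3021, 5832 and 3518 genes were called in all.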
